A study of Rattus norvegicus with 36 samples.

Results

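Liver levels of 6 genes that respond to foreign compounds through the nuclear receptors CAR and PXR were followed in male Sprague Dawley rats given TBPH, bis(2-ethylhexyl) tetrabromophthalate, a brominated phthalate ester used as a flame retardant. The genes are Cyp3a23-3a1, Cyp3a18, Cyp3a9, Ephx1, Por and Alas1, 6 of 14217 genes that the array annotation names. Each was taken as the probe set carrying that gene symbol alone, the brightest over all arrays where there was more than 1. All 6 were found, on 7 probe sets, because Por has 2. Dosing began at 7 weeks of age, by gavage in corn oil at 5 ml/kg, and lasted 5 days. RNA came from the left lobe of the liver, removed on the day that followed the final dose. There were 6 groups of 6 arrays, namely corn oil vehicle alone and TBPH at a low 0.07 or 0.71 mg/kg, at 7.06 mg/kg, and at a high 70.6 or 706 mg/kg, so all groups share the oil, the gavage, the sex and the strain. The labels number the replicates without saying that each is a separate animal. A p-value here therefore sets a difference or correlation against the spread between these arrays only, and may not extend to other rats.

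CAR and PXR are receptors that sense drugs, steroids and environmental chemicals in hepatocytes. They pair with RXR and bind repeats of short hexamers in DNA, and in rodent liver their activation raises enzymes that oxidise and conjugate such compounds. The Cyp3a enzymes are cytochromes P450 that hydroxylate steroids and many drugs. Por passes electrons to every microsomal P450, Alas1 makes the rate-limiting step of the haem that P450s carry, and Ephx1 hydrolyses the epoxides that P450s form. In rat liver Cyp3a23-3a1 is the classical form induced through PXR, Cyp3a18 is more abundant in males and Cyp3a9 in females.

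The DNA just before the start of these genes differs in the hexamers that such receptors recognise, and the stretches below show them for 4 Cyp3a genes and Ephx1. Sequences are RefSeq's, build GRCr8, 250 bases upstream of the start written 5′ to 3′ along the gene, with the hexamers AGTTCA and AGGTCA in capitals on either strand. The non-member Cyp3a2 is shown because it shares the repeat of Cyp3a23-3a1. For Ephx1 RefSeq gives 2 starts, and the stretch of the second is shown.
Cyp3a23-3a1, chr12:14398804-14399053, minus strand: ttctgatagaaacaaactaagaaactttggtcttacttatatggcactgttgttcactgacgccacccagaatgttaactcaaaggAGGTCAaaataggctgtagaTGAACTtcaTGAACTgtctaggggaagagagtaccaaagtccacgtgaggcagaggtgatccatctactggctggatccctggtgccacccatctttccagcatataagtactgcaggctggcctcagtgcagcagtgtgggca
Cyp3a2, chr12:14343858-14344107, minus strand: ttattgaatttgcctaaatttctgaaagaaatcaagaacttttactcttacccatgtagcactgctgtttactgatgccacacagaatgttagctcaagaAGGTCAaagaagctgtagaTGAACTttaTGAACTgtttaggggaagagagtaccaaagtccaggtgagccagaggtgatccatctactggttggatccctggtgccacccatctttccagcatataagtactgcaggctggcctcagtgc
Cyp3a18, chr12:13994062-13994311, plus strand: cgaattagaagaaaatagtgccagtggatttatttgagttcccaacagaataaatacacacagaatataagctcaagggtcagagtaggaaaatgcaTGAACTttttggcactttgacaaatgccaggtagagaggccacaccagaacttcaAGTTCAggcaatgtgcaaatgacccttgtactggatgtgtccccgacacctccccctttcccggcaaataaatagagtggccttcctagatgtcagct
Cyp3a9, chr12:21960161-21960410, minus strand: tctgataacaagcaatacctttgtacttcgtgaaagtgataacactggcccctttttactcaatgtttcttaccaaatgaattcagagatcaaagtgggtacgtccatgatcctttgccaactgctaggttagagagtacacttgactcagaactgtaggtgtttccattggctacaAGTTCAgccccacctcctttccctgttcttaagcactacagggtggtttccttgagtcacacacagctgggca
Ephx1, the second start, chr13:95263118-95263367, minus strand: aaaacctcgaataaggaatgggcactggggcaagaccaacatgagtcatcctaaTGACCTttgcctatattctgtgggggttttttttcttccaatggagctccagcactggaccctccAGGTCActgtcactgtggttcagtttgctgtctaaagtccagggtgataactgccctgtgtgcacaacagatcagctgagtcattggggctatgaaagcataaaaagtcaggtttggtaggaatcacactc

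Both strands of windows from 250 bases before to 50 after each start were searched for all 33469 promoters of the table, in which all 6 genes were matched. The direct repeat with a spacer of 3 bases, AGTTCANNNAGTTCA, was in 2 windows, or 0.00598%. These belonged to Cyp3a23-3a1, 144 to 130 bases before its start, and to Cyp3a2, 131 to 117 bases before its start. The capital hexamers of the repeat stand in the printed strand as TGAACT and overlap the single-hexamer matches. At least 1 AGTTCA was in 14.5% of windows, including Cyp3a18, with matches beginning 153 and 98 bases before the start, and Cyp3a9, 73 bases before. At least 1 AGGTCA was in 16.2% of windows, including Cyp3a23-3a1 (164 bases before), the second start of Ephx1 (196 and 131) and Por (217). The window of Alas1 and that of the other start of Ephx1 held neither. AGGTCANNNAGTTCA was in 0.00896% of windows and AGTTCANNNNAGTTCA in 0.012%, with no match in the 6 genes. AGGTCANNNNAGTTCA, TGAACTNNNNNNAGTTCA and TGAACTNNNNNNAGGTCA were in 0 windows. In the best ungapped alignment of the windows, Cyp3a23-3a1 and Cyp3a2 matched at 209 of 287 bases (72.8%), and the other pairs of Cyp3a genes at 31.1% to 36.3%. A match describes the letters only, and no receptor binding was measured here.

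The arrays resembled liver and each other. Hepatocyte markers were bright, with a mean log2 value over all arrays of 14.76 for Alb (albumin) and 14.33 for Ttr (transthyretin), against a median of 5.09 over all probe sets. Values ran from 1.86 to 14.77, and correlations between arrays from 0.987 to 0.996. The GAPDH control differed between its 3′ and 5′ probe sets by 0.41 log2 on replicate 5 of the 70.6 mg/kg group and by 0.33 on replicate 4 of the 0.07 mg/kg group. On the other 34 arrays this difference, a sign of RNA quality, ran from -0.18 to 0.09. Precision is limited by how many arrays there are, since arrays give no read depth. In whole liver, fewer cells of a type and less RNA per cell cannot be told apart.

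No induction of the 6 genes could be called at any dose of TBPH. Ephx1 came nearest, with a log2 value 0.24 higher at 706 mg/kg than in vehicle, where a log2 difference of 1 is a 2-fold change. Cyp3a23-3a1 had its highest mean at the lowest dose, 0.07 mg/kg, and the means of Cyp3a18 stayed within 0.06 of vehicle at every dose. With limma, 0 of the 6 genes had an adjusted p under 0.05 at any dose, over dose rank or for any difference among the 6 groups, as was true of 0% of the 31042 probe sets tested. At an unadjusted p under 0.05, 1 of 6 passed at 706 mg/kg, Ephx1, against 3.48% of all probe sets. None of the 6 passed at 70.6 mg/kg (5.24% of all probe sets), 7.06 mg/kg (3.48%), 0.71 mg/kg (3.98%) or 0.07 mg/kg (3.07%). Over dose rank 1 of 6 passed, again Ephx1, against 4.16% of all probe sets, and for any difference among the groups 0 of 6, against 2.54%. The 95% intervals of 29 of the 30 pairs of gene and dose included 0. All doses were compared with the same vehicle arrays, so the comparisons are not independent of each other.

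**Figure D1:**
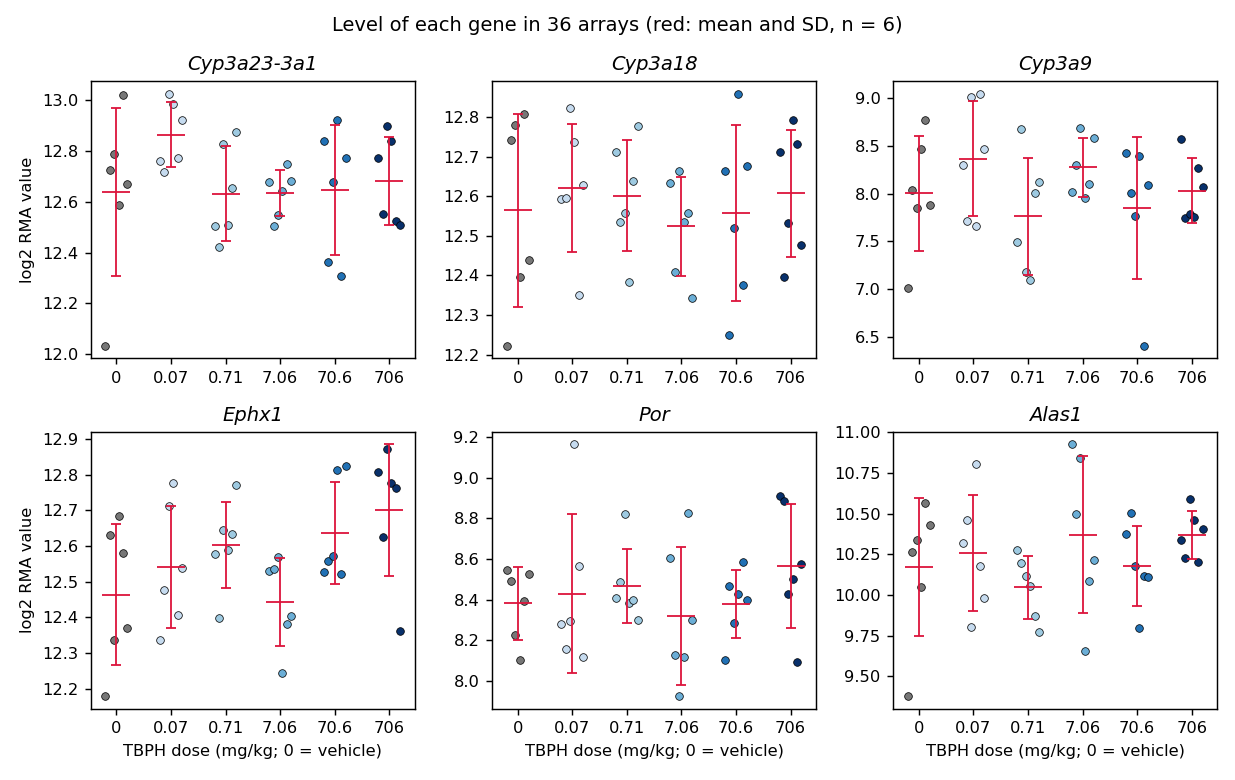
Log2 RMA value of each gene (vertical axis, a scale of its own for each gene) on the 36 arrays by TBPH dose in mg/kg, with 0 for vehicle. Points are arrays and red marks the mean and SD of 6 arrays; vehicle replicate 1 is the lowest point of the plot for Cyp3a23-3a1 (12.03), Cyp3a18 (12.22), Ephx1 (12.18) and Alas1 (9.38).

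Cyp3a23-3a1 showed no ordered relation to dose. Its mean log2 value was 12.64 ± 0.33 in vehicle and 12.86 ± 0.13 at 0.07 mg/kg (SD, n = 6 each). At 0.71, 7.06, 70.6 and 706 mg/kg it was 12.63 ± 0.19, 12.63 ± 0.09, 12.65 ± 0.25 and 12.68 ± 0.17 (SD, n = 6 each). The group at 0.07 mg/kg exceeded the next highest mean by 0.18, above the larger SD of that pair (0.17), and no other neighbours in the order differed beyond their spread. At 0.07 mg/kg the lowest, median and highest arrays were 12.72, 12.85 and 13.03, against 12.03, 12.70 and 13.02 in vehicle. The groups overlapped, with 1 of 6 dosed arrays above all vehicle arrays. The difference of 0.23 had a 95% interval of -0.0085 to 0.46 (limma, adjusted p = 1.00). At 706 mg/kg the lowest, median and highest were 12.51, 12.66 and 12.90, inside the range of vehicle. The difference there was 0.05 (-0.19 to 0.28). This interval uses a spread pooled over all groups and is not adjusted for the 30 pairs of gene and dose. The slope was -0.012 log2 per step of dose rank (-0.053 to 0.028). Leaving out vehicle replicate 1, the lowest of all 36 arrays for this gene, the difference at 0.07 mg/kg was 0.11 and that at 706 mg/kg -0.08.

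Cyp3a18 was the steadiest of the Cyp3a members across doses. Its mean was 12.56 ± 0.24 in vehicle, and 12.62 ± 0.16, 12.60 ± 0.14, 12.52 ± 0.12, 12.56 ± 0.22 and 12.61 ± 0.16 from the lowest dose to the highest (SD, n = 6 each). No neighbours in the order of these means differed by more than their SD. At 706 mg/kg the lowest, median and highest arrays were 12.40, 12.62 and 12.79, against 12.22, 12.59 and 12.81 in vehicle. All dosed arrays lay inside the vehicle range, and the difference was 0.04 (95% interval -0.16 to 0.25). Over the 5 doses the differences from vehicle ran from -0.04 to 0.06, with signs that changed under other scalings at 70.6 mg/kg and for the slope.

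Cyp3a9 varied most between arrays, and its dose means followed no order. They were 8.00 ± 0.60 in vehicle, and 8.37 ± 0.60, 7.76 ± 0.61, 8.27 ± 0.31, 7.85 ± 0.75 and 8.03 ± 0.34 from the lowest dose to the highest (SD, n = 6 each). Its pooled within-group SD of 0.56 was larger than that of 99% of the 9584 genes above the median brightness, whose median SD was 0.14. At 70.6 mg/kg the lowest, median and highest arrays were 6.41, 8.05 and 8.43, against 7.01, 7.96 and 8.77 in vehicle. The array at 6.41 was replicate 5, with the highest GAPDH 3′ to 5′ difference, and it is also the lowest of all 36 arrays for 7.41% of all genes. With all arrays the difference at that dose was -0.15 (95% interval -0.76 to 0.45). Without both arrays of high GAPDH difference it was 0.13. At 706 mg/kg the difference was 0.03, and 0.26 with the GAPDH difference as a covariate. The intervals for Cyp3a9 reached from -0.85 (at 0.71 mg/kg) to 0.97 (at 0.07 mg/kg), so changes of that size are not excluded at single doses.

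Ephx1, the microsomal epoxide hydrolase, had its highest means at the highest doses. Its mean was 12.46 ± 0.20 in vehicle, and 12.54 ± 0.17, 12.60 ± 0.12, 12.44 ± 0.12, 12.64 ± 0.14 and 12.70 ± 0.18 from the lowest dose to the highest (SD, n = 6 each). The mean at 7.06 mg/kg was the lowest of the 6, and no neighbours in the order differed by more than their SD. At 706 mg/kg the 6 arrays read 12.81, 12.63, 12.87, 12.78, 12.76 and 12.36, against 12.18, 12.63, 12.34, 12.68, 12.58 and 12.37 in vehicle. Of these dosed arrays, 4 lay above all vehicle arrays, and replicate 6 lay among the lower vehicle arrays. The difference was 0.24, with a 95% interval of 0.05 to 0.42 (limma, adjusted p = 0.9995). An exact permutation test over 924 regroupings of these 12 arrays gave p = 0.0606, and 0.985 after adjustment over the 30 pairs of gene and dose. At 70.6 mg/kg the lowest, median and highest arrays were 12.52, 12.56 and 12.83, so 2 of 6 exceeded all vehicle arrays, and the difference was 0.17 (-0.01 to 0.36). The remaining differences were 0.08 at 0.07 mg/kg, 0.14 at 0.71 mg/kg and -0.02 at 7.06 mg/kg. The slope was 0.038 log2 per step of dose rank, with an interval of 0.0057 to 0.069 (limma, adjusted p = 0.998). Leaving out 1 array at a time moved the difference at 706 mg/kg between 0.18, without vehicle replicate 1, and 0.31, without replicate 6 at 706 mg/kg. The adjusted p was at least 0.811 in all of these.

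**Figure D2:**
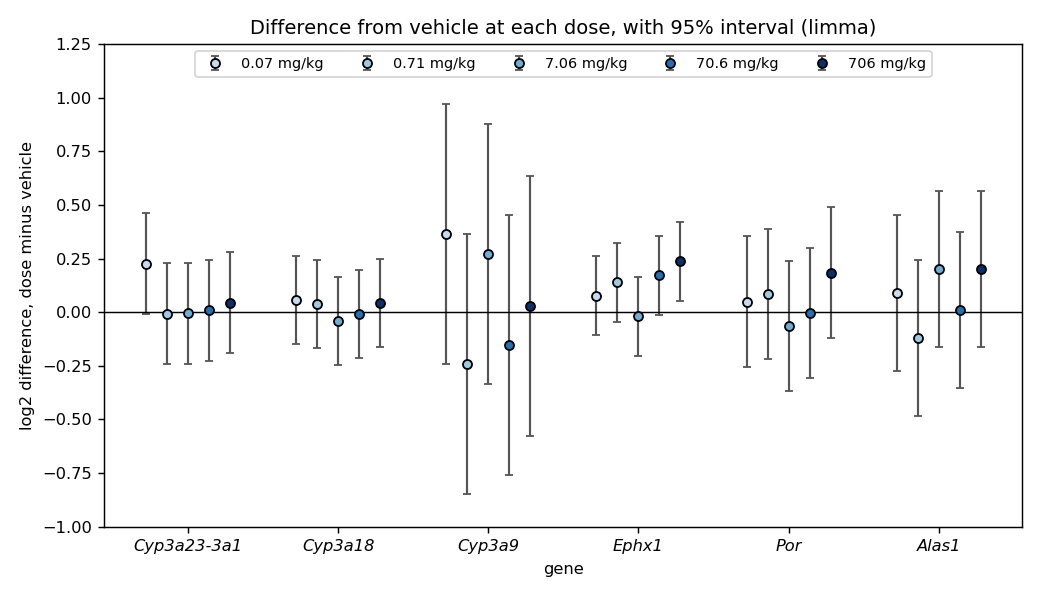
Log2 difference from vehicle (vertical axis) for each gene at the 5 doses, pale to dark with rising dose; points are limma estimates and bars 95% intervals, n = 6 arrays per group. The interval for Ephx1 at 706 mg/kg (0.05 to 0.42) is the only 1 of 30 that leaves out 0, and no adjusted p passed 0.05.

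Por and Alas1, which serve P450s beyond Cyp3a, did not pass either. Por averaged 8.38 ± 0.18 in vehicle, and 8.43 ± 0.39, 8.47 ± 0.18, 8.32 ± 0.34, 8.38 ± 0.17 and 8.57 ± 0.31 from the lowest dose to the highest (SD, n = 6 each). At 706 mg/kg the lowest, median and highest arrays were 8.09, 8.54 and 8.91, against 8.10, 8.44 and 8.55 in vehicle. At this dose 3 arrays were above all vehicle arrays and 1 was below them all, and the difference was 0.18 (95% interval -0.12 to 0.49). It was 0.094 with the GAPDH difference as a covariate, and 0.12 to 0.28 when 1 array at a time was left out. The second probe set of Por gave 0.09 (-0.14 to 0.31) at this dose, and it had the opposite sign to the first at 0.71 and 0.07 mg/kg. The highest Por value of all, 9.17, was on replicate 4 at 0.07 mg/kg, which had a high GAPDH difference and was the highest array for 7.17% of all genes. Without both arrays of high GAPDH difference the difference at 0.07 mg/kg was -0.10, against 0.05 with all arrays.

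Alas1 averaged 10.17 ± 0.43 in vehicle, and 10.26 ± 0.36, 10.05 ± 0.19, 10.37 ± 0.48, 10.18 ± 0.25 and 10.37 ± 0.15 from the lowest dose to the highest (SD, n = 6 each). No neighbours in the order of these means differed by more than their SD. At 706 mg/kg the lowest, median and highest arrays were 10.20, 10.37 and 10.59, against 9.38, 10.30 and 10.56 in vehicle. The low value was vehicle replicate 1, and 1 of 6 dosed arrays lay above all vehicle arrays. The difference of 0.20 (95% interval -0.16 to 0.56) was 0.04 without that array. Spread between arrays of a group was wide for both genes. Their pooled SDs of 0.28 for Por and 0.33 for Alas1 were larger than those of 93% and 96% of the genes above the median brightness, while those of Cyp3a23-3a1 (0.21), Cyp3a18 (0.18) and Ephx1 (0.16) were larger than 84.7%, 75.8% and 65.6%.

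Within dose groups, Cyp3a23-3a1, Cyp3a18 and Ephx1 varied together from array to array, while no pair that included Por or Alas1 passed. Correlations were taken over the deviations of all 36 arrays from their group means, with a two-sided permutation test that shuffled arrays within groups (100000 resamples), and were adjusted over the 15 pairs of genes. Of these, 3 passed. For Cyp3a23-3a1 and Cyp3a18, Pearson's r was 0.72 (permutation p = 2e-05, adjusted p = 0.0003) and Spearman's rho 0.65 (permutation p = 0.00017, adjusted p = 0.00255). The r was positive in 6 of 6 groups, from 0.05 at 7.06 mg/kg to 0.94 at 70.6 mg/kg. For Cyp3a23-3a1 and Ephx1, r was 0.59 (permutation p = 0.00051, adjusted p = 0.00382) and rho 0.58 (permutation p = 0.00078, adjusted p = 0.00585). It was positive in 5 of 6 groups and -0.53 at 7.06 mg/kg. For Cyp3a18 and Ephx1, r was 0.53 (permutation p = 0.00334, adjusted p = 0.0167) and rho 0.53 (permutation p = 0.00395, adjusted p = 0.0198). It was positive in 6 of 6 groups. For Cyp3a23-3a1 and Alas1 r was 0.18, and in single groups it ran from -0.66 at 0.71 mg/kg to 0.96 in vehicle. For Ephx1 and Alas1 r was 0.23, and in single groups it ran from -0.73 at 0.71 mg/kg to 0.955 at 7.06 mg/kg.

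**Figure D3:**
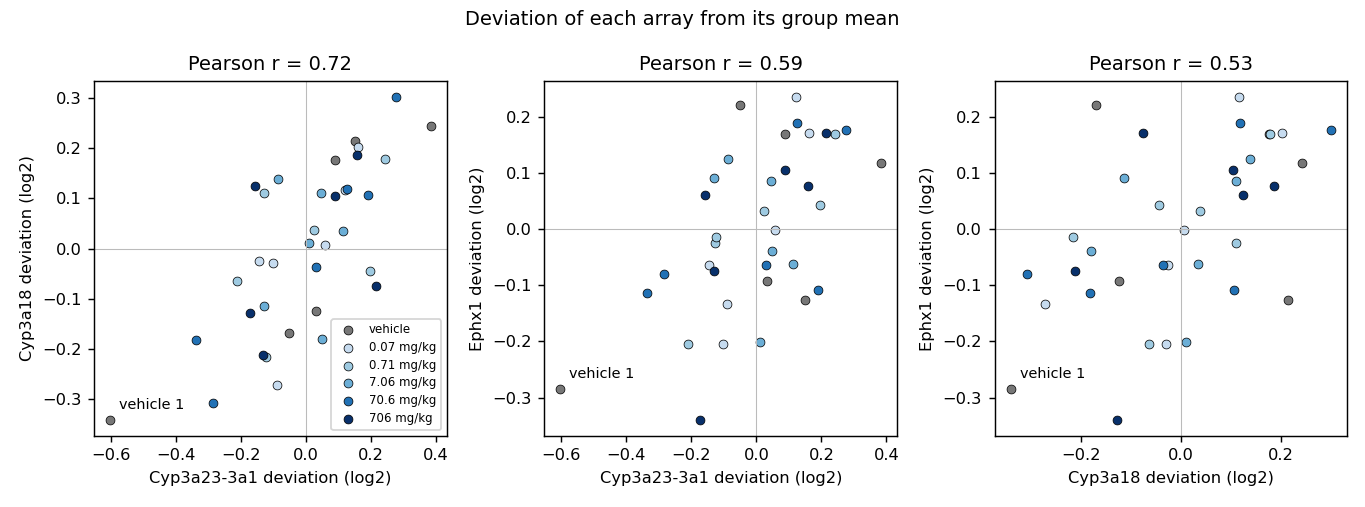
Deviation of each array from its group mean, in log2, for the 3 pairs of genes whose correlation passed; 36 arrays coloured by group, n = 6 per group. Vehicle replicate 1 lies at the low end of both axes in each panel, and r was 0.72, 0.59 and 0.53 from left to right.

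The 3 relations were weaker without vehicle replicate 1. This array was the lowest of all 36 arrays for 4 of the 6 genes, Cyp3a23-3a1, Cyp3a18, Ephx1 and Alas1, and for the non-member Cyp3a2 (13.71), whereas it was the lowest for 2.04% of the 14217 genes. Its GAPDH difference was 0.03, within the range of the 34 arrays. Without this array, r was 0.66 for Cyp3a23-3a1 with Cyp3a18 (permutation adjusted p = 0.00315) and 0.50 for Cyp3a23-3a1 with Ephx1 (permutation adjusted p = 0.0309). For Cyp3a18 with Ephx1 it was 0.46, and that call ended (permutation adjusted p = 0.0587). Without the 2 arrays farthest from the median of the first gene, the r of Cyp3a23-3a1 with Cyp3a18 was 0.64 and still passed (permutation adjusted p = 0.0069). The other 2 pairs then had r of 0.49 and 0.46 and did not pass (permutation adjusted p = 0.0548 and 0.0753). This check leaves fewer arrays and a narrower range of the first gene, so it cannot show by itself whether the calls rest on those arrays. Without the 2 arrays of high GAPDH difference all 3 pairs passed, with r of 0.70, 0.57 and 0.51. Probe sequences were not used here, so hybridisation of 1 Cyp3a transcript to the probes of another cannot be told apart from shared variation in the Cyp3a pair.

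**Figure D4:**
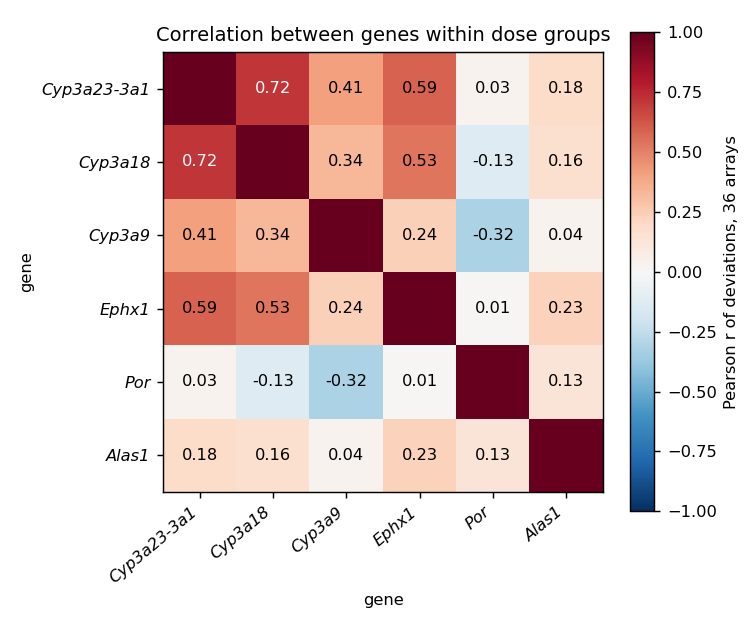
Pearson's r between the 6 genes over deviations from group means on 36 arrays, from -1 in blue to 1 in red. Cyp3a23-3a1, Cyp3a18 and Ephx1 form the block with r of 0.53 to 0.72, and the rows of Por and Alas1 hold values between -0.32 and 0.23.

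Cyp3a9 did not join the others by the same test. Its r was 0.41 with Cyp3a23-3a1 (permutation p = 0.0385, adjusted p = 0.144) and 0.34 with Cyp3a18 (permutation p = 0.0868, adjusted p = 0.217), and the first was 0.06 without the farthest arrays. The 60 pairs of a member with a panel of 9 regulators and signal genes and with the GAPDH difference gave 4 calls. Cyp3a9 fell with the GAPDH difference, with r of -0.68 (permutation p = 0.00032, adjusted p = 0.0096) and rho of -0.60 (permutation p = 0.00048, adjusted p = 0.0285), and Por rose with it, with r of 0.54 (permutation p = 0.0011, adjusted p = 0.022) and rho of 0.43 (permutation p = 0.00942, adjusted p = 0.141). Por ran against Nr1i2, which encodes PXR, with r of -0.59 (permutation p = 0.00023, adjusted p = 0.0096) and rho of -0.55 (permutation p = 0.00095, adjusted p = 0.0285). Alas1 ran with Cebpa, a liver transcription factor, with r of 0.52 (permutation p = 0.00184, adjusted p = 0.0276) and rho of 0.55 (permutation p = 0.00173, adjusted p = 0.0346). None of the 60 pairs passed without the 2 arrays of high GAPDH difference or without the 2 farthest arrays. Without the arrays of high GAPDH difference, r was -0.47 for Cyp3a9 and 0.34 for Por with that difference, -0.51 for Por with Nr1i2 and 0.53 for Alas1 with Cebpa.

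In the main test the receptor genes themselves gave no call with the Cyp3a genes. For Nr1i3, which encodes CAR, r was 0.37 with Cyp3a23-3a1, 0.46 with Cyp3a18, 0.45 with Cyp3a9, 0.33 with Ephx1, -0.16 with Por and 0.28 with Alas1, with permutation adjusted p of at least 0.118. Without the 2 arrays farthest from the median of the Cyp3a gene, r was -0.11 with Cyp3a23-3a1, 0.32 with Cyp3a18 and 0.11 with Cyp3a9. When replicate number was also removed from the deviations, Cyp3a18 with Nr1i3 passed (r = 0.57, permutation adjusted p = 0.0182). For Nr1i2 the r with the 5 genes other than Por ran from -0.32 to 0.26. Rxra, the shared partner, and Hnf4a, which sustains hepatocyte genes, had r with the 6 genes from -0.31 to 0.27. The clock output gene Dbp reached -0.32 with Cyp3a23-3a1 and the clock gene Nr1d1 -0.54 with Cyp3a9, which was -0.19 without the 2 arrays of high GAPDH difference. Ppargc1a, a coactivator of the fasting response, ran from -0.36 with Alas1 to 0.27 with Cyp3a18. Cish, a target of growth hormone pulses, ran from -0.12 to 0.16.

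Of all genes, those most like Cyp3a18 in their deviations were Slco1a4, an uptake transporter of bile acids and drugs (r = 0.72), Cyp3a23-3a1 (0.72) and Gstt3, a glutathione transferase (0.71), over 36 arrays and among 14216 genes. For Cyp3a23-3a1 they were Cyp3a18 (0.72), Ivns1abp (0.65) and Cyp3a2 (0.61), and for Ephx1 they were Akr1d1, a steroid reductase (0.60), Prss56 (0.59) and Cyp3a23-3a1 (0.59). For Alas1 they were Lmo7 (0.77), Mphosph8 (0.76) and Klhl25 (0.76), and for Por they were Higd1a (0.70), Pde4a (0.69) and Secisbp2l (0.69). For Cyp3a9 they were Spata13, Kpna1 and Magi1, each with r of 0.75, and these stood at places 7, 12 and 31 without the 2 arrays of high GAPDH difference. Without those arrays Akr1d1, Prss56 and Cyp3a23-3a1 stood at places 9, 4 and 18 for Ephx1, and Cyp3a2 at place 7 for Cyp3a23-3a1. The arrays are shared by all these values, the genes were ranked on them, and no test was made. Slco1a4 and Cyp3a2 belong to the 24 other CAR and PXR targets of the next paragraph. Over those 24 the median r was 0.06 with Cyp3a18, from -0.44 (Cyp2b3) to 0.72 (Slco1a4). With Cyp3a23-3a1 it was also 0.06, from -0.24 (Cyp2b3) to 0.61 (Cyp3a2).

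Among other CAR and PXR targets, none of those measured passed at 706 mg/kg either. Of 36 listed genes 24 were measured, 15 with a mean above vehicle and 9 below, with a median difference of 0.10 log2. Cyp2b1, Cyp2b2, Ugt1a1 and Abcb1b were among the listed genes without a probe set of that symbol alone, so they were not assessed. Sult2a1 (mean log2 value 2.43), Cyp2b12 (2.78) and Akr1b7 (3.15) were the dimmest of the 24, against a median of 5.09 over all probe sets. The 6 genes described above were all above vehicle, with a median of 0.12 (range 0.03 to 0.24). Without vehicle replicate 1, 3 of the 6 were below vehicle, Cyp3a23-3a1 (-0.0755), Cyp3a18 (-0.0254) and Cyp3a9 (-0.17), and the median was 0.008. All 6 were also above vehicle at the lowest dose, 0.07 mg/kg, with a median of 0.083 (range 0.05 to 0.36). Without vehicle replicate 1, Cyp3a18 (-0.011) and Alas1 (-0.071) were below vehicle at that dose and the other genes above. Of all genes, 7341 of 14217 lay above vehicle at 0.07 mg/kg. With 1 probe set per gene, 7553 of all 14217 genes were above vehicle at 706 mg/kg and 6664 below, with a median of 0.0059. By limma's unadjusted p under 0.05, 1 of the 24 passed, against 3.48% of all probe sets. This was Gstt1, a glutathione transferase, with a mean of 9.52 at 706 mg/kg against 9.32 in vehicle, a difference of 0.20 (95% interval 0.04 to 0.36). Ces2c, a carboxylesterase, differed by 0.18 (-0.03 to 0.39), and Cyp3a2, a Cyp3a form predominant in male rats, by -0.01 (-0.10 to 0.08). At 70.6 mg/kg the median of the 24 was 0.09, with 19 above and 5 below, while the 6 genes had a median of 0.0026, with 3 above and 3 below. Of all genes, 7785 of 14217 were above vehicle at 70.6 mg/kg, with a median of 0.011. The 24 were also mostly above vehicle at 7.06, 0.71 and 0.07 mg/kg, with 16, 15 and 17 above. They were not examined without vehicle replicate 1.

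**Figure D5:**
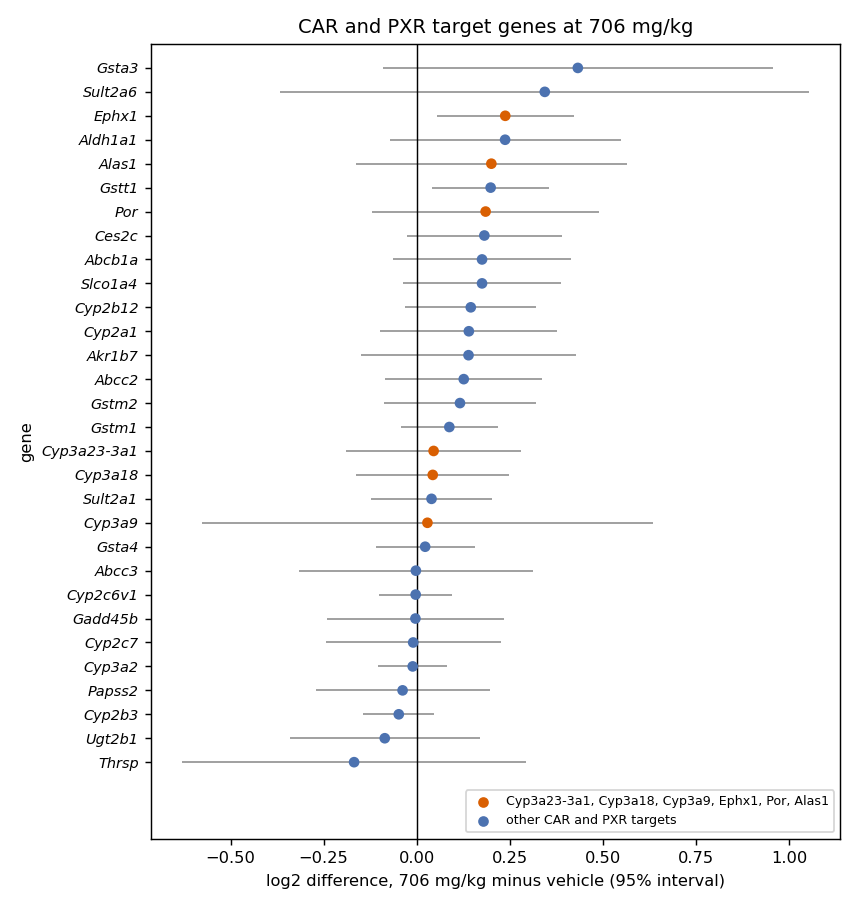
Log2 difference between 706 mg/kg and vehicle (horizontal axis) with its 95% interval for the 6 genes (orange) and 24 other CAR and PXR targets (blue), n = 6 arrays per group. The intervals of Ephx1 and Gstt1 leave out 0, and none of the 30 genes passed the adjusted threshold.

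The machinery around these genes was also without a call at 706 mg/kg. Receptors and cofactors had a median of 0.04 over 18 of 20 listed genes, 13 above 0 and 5 below. Rxra differed by 0.18 (95% interval -0.01 to 0.37) and the coactivator Ncoa2 by -0.13 (-0.29 to 0.02), while Nr1i2 differed by 0.06 (-0.10 to 0.21) and Nr1i3 by -0.04 (-0.47 to 0.39). Genes of haem synthesis and breakdown had a median of 0.02 over 13 genes, 9 above 0 and 4 below. Blvra, which reduces biliverdin, differed by 0.11 (-0.02 to 0.24) and Uros, an enzyme of haem synthesis, by 0.06 (-0.08 to 0.20). Electron transfer and membrane partners of P450s had a median of -0.0079 over 7 genes, 3 above 0 and 4 below, with the membrane protein Pgrmc1 at 0.05 (-0.04 to 0.14) and the reductase Cyb5r2 at -0.06 (-0.22 to 0.10). The other epoxide hydrolases measured, Ephx2 and Ephx4, differed by 0.03 (-0.67 to 0.74) and 0.01 (-0.19 to 0.21). The interval of Ephx2 is wide enough to include the difference seen for Ephx1.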

How the data were processed

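The table deposited by the authors holds 1 log2 value per probe set and array, made with RMA and affy per the submitters' processing notes, which state no version; RMA corrects background, normalises quantiles between arrays and summarises each probe set, so differences are relative to each array's overall distribution. Per the labels, Affymetrix 3′ arrays were hybridised with liver RNA of 36 samples. The genome build is not given in the sources used here. The table has 31099 probe sets, of which 57 are array controls and were not tested. Of the 31042 tested, 20826 carry 1 gene symbol, 436 several and 9780 none; names come from the platform annotation. No filter on dim probe sets was set.

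Each dose was compared with vehicle by limma 3.58.1 in R 4.3.3, with 1 mean per group on all 36 arrays (30 residual degrees of freedom), two-sided tests and Benjamini-Hochberg adjustment over all probe sets, threshold 0.05. R/maanova, named in the design text of the series, was not at hand. A slope over dose rank, an F test and exact permutation tests were added, and correlations used deviations from group means in SciPy 1.17.1 with Python 3.11.15. The code was tested on simulated data. Named genes are the 6 members, the regulator panel, the measured Cyp3a genes, the 2 genes of smallest p at 706 mg/kg in each list and the 3 genes most like each member. The members and lists were chosen with earlier results of these data known. Alternatives covered the arrays in the fit, replicate block, variance moderation, array weights, dim probe sets, scaling, RNA quality, dose scale, probe set and each array left out. The second Por probe set, the leave-one-out correlations and the array extremes were chosen after seeing the data.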

Additional observations from a re-analysis of the deposited data

Results flagged for a closer look

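Among the 42 groups of 6 arrays examined (the 6 genes and Cyp3a2 in each dose group), 2 held an array far from the other 5, where chance flags about 1 in 20 groups. At 70.6 mg/kg, replicate 5 had the lowest Cyp3a9 value of its group and of all arrays, 6.41, below the next array of its group at 7.76. This array also had the highest GAPDH 3′ to 5′ difference, 0.41, and without both arrays of high GAPDH difference the Cyp3a9 mean at that dose lay 0.13 above vehicle, against -0.15 with all arrays. At 0.71 mg/kg, replicate 3 had the highest Por value of its group, 8.82, above the next at 8.49, with a GAPDH difference of 0.03.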

How the results depend on the processing

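In the settings run, the 6 genes had 0 calls at each dose, for the slope and for any difference. Leaving out 1 array at a time was run for the doses and the slope. These 36 refits gave 0 calls in 96 comparisons. Over all probe sets, deviations of same-numbered arrays correlated by -0.02 on average (-0.41 to 0.27), and 5 of 36 arrays were closest to their own number. Such an average shows no general pairing by replicate number but cannot exclude one that affects only some genes. With a replicate block Ephx1 at 706 mg/kg stayed at 0.24 with 0 calls, 3 member correlations passed, and Cyp3a18 with Nr1i3 passed (r = 0.57, permutation adjusted p = 0.0182). The number of member correlations that passed was 1 without the 2 farthest arrays, where Cyp3a23-3a1 with Ephx1 had r of 0.49 and Cyp3a18 with Ephx1 0.46. The number for the regulator panel was 0 without the 2 arrays of high GAPDH difference and 0 without the 2 farthest. For Cyp3a9 with the GAPDH difference r was then -0.47 and -0.50, for Por with it 0.34 and 0.40 (rho 0.43), for Por with Nr1i2 -0.51 and -0.55, and for Alas1 with Cebpa 0.53 and 0.57. Signs turned in pairs near 0: without the farthest arrays for Cyp3a23-3a1 with Alas1 (-0.16) and Cyp3a9 with Alas1 (-0.23, and rho -0.10), and without the arrays of high GAPDH difference for Ephx1 with Por (-0.15, and rho -0.0595) and Por with Alas1 (-0.0521). Differences that turned sign were uncalled and mostly near 0. With array weights Cyp3a9 at 706 mg/kg was -0.055, and at 70.6 mg/kg Cyp3a18 was 0.021 and Alas1 -0.0081, with a Cyp3a18 slope of 0.00146. With quantile normalization repeated, Cyp3a23-3a1 was -0.018 and Alas1 -0.014 at 70.6 mg/kg. With median centring, Cyp3a18 was 0.0069 and Por 0.0105 at 70.6 mg/kg, Cyp3a23-3a1 0.013 at 7.06 and 0.0034 at 0.71 mg/kg, and the Cyp3a18 slope 0.000787. With the GAPDH difference as a covariate, Cyp3a18 was 0.018, Cyp3a9 0.13 and Alas1 -0.0055 at 70.6 mg/kg, Cyp3a23-3a1 0.0096 at 7.06 and 0.0139 at 0.71 mg/kg, Por -0.043 at 0.07 mg/kg, and the slopes 0.000992 for Cyp3a18 and 0.0083 for Cyp3a9. Without the arrays of high GAPDH difference, Cyp3a18 was 0.029 and Cyp3a9 0.13 at 70.6 mg/kg, Por -0.099 and Alas1 -0.022 at 0.07 mg/kg, and the Cyp3a18 slope 0.0038. The mean of both Por probe sets gave -0.0029 at 0.07 mg/kg, and a linear dose gave a Cyp3a18 slope of 4.459e-05. Without 1 array at a time, Cyp3a23-3a1 ran from -0.0755 to 0.12 at 706, -0.11 to 0.0856 at 70.6, -0.12 to 0.0725 at 7.06 and -0.13 to 0.0706 at 0.71 mg/kg. Cyp3a18 ran from -0.0254 to 0.0914 at 706, -0.0752 to 0.0546 at 70.6, -0.11 to 0.00805 at 7.06, -0.0317 to 0.0851 at 0.71 and -0.011 to 0.11 at 0.07 mg/kg, with a slope of -0.011 to 0.0043. Cyp3a9 ran from -0.17 to 0.18 at 706 and -0.35 to 0.13 at 70.6 mg/kg, Ephx1 from -0.0768 to 0.0241 at 7.06 mg/kg, Alas1 from -0.15 to 0.0873 at 70.6 and -0.0713 to 0.18 at 0.07 mg/kg, and Por from -0.0591 to 0.0512 at 70.6, -0.17 to 0.0148 at 7.06 and -0.10 to 0.11 at 0.07 mg/kg. Member correlations that passed numbered 2 to 4 in these refits. The cause of these shifts was not tested. With 6 arrays a group, the intervals of Cyp3a9 stayed wide. They ran from -0.85 to 0.36 at 0.71 mg/kg, -0.24 to 0.97 at 0.07 mg/kg and -0.58 to 0.63 at 706 mg/kg.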

Other observations

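Clock, zonation and cell type lists at 706 mg/kg against vehicle held 0 calls by limma. Of their 90 measured genes 3, Bhlhe41, Ass1 and Stab1, had an unadjusted p under 0.05 (3.33%), against 3.48% of all probe sets. Clock genes had a median difference of 0.03 over 16 measured genes, 10 above vehicle and 6 below, with Bhlhe41 at -0.22 (95% interval -0.44 to -0.01) and Per2 at -0.09. Pericentral hepatocyte genes, the zone where many P450s are most abundant, had a median of -0.01 over 11 genes, 4 above vehicle and 7 below, with Lhpp at 0.13 and Slc13a3 at 0.14. Periportal genes had a median of -0.03 over 11 genes, 4 above vehicle and 7 below. Among them were Ass1, a urea cycle enzyme, at -0.15 (-0.28 to -0.01) and Aldh1b1 at 0.35. Hepatocyte genes had a median of -0.0070 over 10 genes, 4 above vehicle and 6 below, with Tdo2 at -0.12 and Apoa1 at -0.10.

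Markers of stellate cells and fibroblasts lay above vehicle in 9 of 9 genes, with a median of 0.14, and included the matrix genes Lum at 0.95 (95% interval -0.19 to 2.1) and Col3a1 at 0.18. Of all genes, 7553 of 14217 lay above vehicle at this dose. The same markers lay above vehicle in 9 of 9 genes at 0.71 mg/kg (median 0.24) and in 4 of 9 at 70.6 mg/kg (median -0.024). Sinusoidal endothelial markers had a median of -0.04 over 6 genes, with Stab1 at 0.23 (0.02 to 0.44) and Pecam1 at -0.09, and Kupffer cell markers a median of 0.03 over 7 genes, with Csf1r at 0.14 and Cd163 at 0.08. Cholangiocyte markers had a median of -0.08 over 5 genes, 2 above vehicle and 3 below (Krt7 -0.14, Cftr -0.08). The median of lymphocyte markers was 0.01 over 6 genes, 3 above and 3 below (Cd8a 0.14, Cd79b -0.10). That of erythroid markers was -0.06 over 3, all below (Slc4a1 -0.08, Alas2 -0.06). That of pancreas and gut genes was -0.09 over 6, 1 above and 5 below (Ctrb1 -0.14, Fabp2 0.31).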
